A study of Mus musculus with 12 samples.

Results

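The proton pump and acidification genes examined here are 9 named genes: 5 subunits of the vacuolar proton pump (Atp6v1g3, Atp6v0d2, Atp6v1b1, Atp6v0a4 and Atp6v1c2), the transcription factor gene Foxi1, and 3 carbonic anhydrases (Car2, Car4 and Car12). They were picked by symbol, with earlier results of these data in view, and all 9 were found among the 19091 genes measured in F1 and among the 26023 measured in F3. The measurement was poly-A RNA sequencing of the mouse prostate after the organochlorine insecticide chlordecone, also called kepone, had been given to pregnant F0 females at 100 µg/kg/day between days E6.5 and E15.5 of development. F1 chlordecone males (3 libraries) were the offspring of dosed females and were set against F1 control males (2 libraries). F3 chlordecone males (3 libraries) descended from the exposed F1 animals by further breeding and were set against F3 control males (3 libraries). A further F1 control named by the labels, F1 control 3, was not analysed here. The labels give no strain, age, vehicle or prostate lobe, and they do not tell single animals from pools. P-values therefore measure the spread between these samples, which may be technical, and not the spread between dosed females.

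The vacuolar proton pump is a rotary machine built of a V1 sector, which hydrolyses ATP in the cytosol, and a V0 sector, which carries protons across the membrane. Most cells use its widely expressed subunits to acidify lysosomes, whereas proton-secreting cells such as kidney intercalated cells and the narrow and clear cells of the mouse epididymis place pumps with specialised subunits on their surface. In those cells carbonic anhydrase supplies the protons from carbon dioxide and water, and in the mouse the forkhead factor Foxi1 is needed for expression of several pump subunits.

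The promoters of 3 of the genes are shown because Atp6v1g3 and Foxi1 carried the widest gaps between the groups in F1, Atp6v1b1 was the pump gene seen in chlordecone libraries alone in F3, and forkhead factors such as Foxi1 bind a short core motif. Promoters were taken from RefSeq (GRCm38.p6), from 250 bases before to 50 bases after the start of the gene, and were held for 7 of the 9 genes. Each is written 5′ to 3′ on the strand of the gene, with matches to the forkhead core TGTTTNC, on either strand, in capitals. The windows are chr1:138273488-138273787 on the plus strand for Atp6v1g3, chr11:34208040-34208339 on the minus strand for Foxi1 and chr6:83742767-83743066 on the plus strand for Atp6v1b1.
Atp6v1g3: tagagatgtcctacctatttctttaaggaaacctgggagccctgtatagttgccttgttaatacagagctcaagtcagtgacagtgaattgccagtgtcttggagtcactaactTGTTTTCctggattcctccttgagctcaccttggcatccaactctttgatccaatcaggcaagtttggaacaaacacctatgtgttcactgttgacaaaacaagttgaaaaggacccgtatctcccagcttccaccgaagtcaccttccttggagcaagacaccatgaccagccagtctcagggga
Foxi1: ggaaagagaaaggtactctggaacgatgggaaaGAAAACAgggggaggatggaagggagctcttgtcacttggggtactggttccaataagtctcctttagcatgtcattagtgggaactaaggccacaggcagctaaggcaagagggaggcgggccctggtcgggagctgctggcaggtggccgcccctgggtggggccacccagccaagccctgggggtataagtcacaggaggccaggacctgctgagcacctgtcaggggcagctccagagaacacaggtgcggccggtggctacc
Atp6v1b1: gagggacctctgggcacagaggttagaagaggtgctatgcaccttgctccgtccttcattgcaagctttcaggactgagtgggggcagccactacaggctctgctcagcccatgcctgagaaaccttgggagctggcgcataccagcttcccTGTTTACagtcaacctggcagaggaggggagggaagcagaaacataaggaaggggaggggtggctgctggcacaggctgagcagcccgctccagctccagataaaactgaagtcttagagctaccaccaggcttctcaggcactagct
The match began 136 bases before the start in Atp6v1g3 and 98 bases before it in Atp6v1b1, where it read TGTTTAC. In Foxi1 it lay on the opposite strand and began 217 bases before the start. The windows of Atp6v0a4, Atp6v1c2, Car4 and Car12 held no match. TGTTTNC, which includes TGTTTAC, occurred in 20.5% of 32851 promoters of this length, and TGTTTAC in 3.65%. These matches describe letters and were not tested for binding.

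Libraries held 17228539 to 28061760 counts in F1 and 71672418 to 114762135 in F3, so a count of 3 stood for a lower level in F3. Levels are given in CPM, counts scaled to a common library size with TMM factors. The tables of the generations were prepared differently, and levels set across them are descriptions. The chi-square per gene between the F1 controls was 17.0, whereas the other F1 pairs had 282 to 632, and the labels do not say whether these controls are separate animals. F1 chlordecone 1 and 3 stood apart from the other F1 libraries by transcripts of the epididymis and vas deferens: the 10 measured markers of these ducts, of 15 listed, summed to 44330, 110 and 13948 CPM in F1 chlordecone 1, 2 and 3, against 30.3 and 27.3 CPM in F1 control 1 and 2. The prostate markers Pbsn, Hoxb13 and Tgm4 were present in every library.

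Of the pump subunits, Atp6v1g3 differed most in F1. Atp6v1g3 encodes a kidney-enriched form of the G subunit in the stalk of V1. It lies at chr1:138273738-138289462 (GRCm38, plus strand). It reached 15.2, 16.2 and 36.1 CPM (385, 297 and 784 counts) in F1 chlordecone 1, 2 and 3, against 0 and 0.281 CPM (0 and 6 counts) in F1 control 1 and 2. Every chlordecone library lay far above both controls, and the 0 in control 1 allows up to 0.157 CPM. The means were 22.5 ± 11.8 CPM (SD, n = 3) in F1 chlordecone and 0.141 ± 0.199 CPM (SD, n = 2) in F1 control. Fewer cells of a type and less RNA per cell cannot be told apart in these bulk samples.

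Atp6v0d2, a form of the d subunit of V0 known in mouse osteoclasts and the kidney, lies at chr4:19876841-19922605 on the minus strand. It had 1.78, 1.15 and 8.10 CPM in F1 chlordecone 1, 2 and 3, against 0.681 and 0.469 CPM in F1 control 1 and 2. Chlordecone 3 was far above the other libraries, and the groups did not overlap. Atp6v0a4, the form of the proton-carrying a subunit found in intercalated cells, lies at chr6:38048483-38124586 on the minus strand. It had 1.35, 1.91 and 4.51 CPM in F1 chlordecone 1, 2 and 3, against 0 and 0.562 CPM in F1 control 1 and 2, again without overlap. Its exons overlap those of Tmem213 on the opposite strand and of D630045J12Rik on the same strand, which makes the reads uncertain.

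Atp6v1b1, the kidney form of the ATP-binding B subunit, lies at chr6:83742990-83758855 on the plus strand. It had 2.38, 8.72 and 7.78 CPM in F1 chlordecone 1, 2 and 3, against 3.35 and 5.06 CPM in F1 control 1 and 2. Chlordecone 1 lay below both controls, so the groups overlapped. Atp6v1c2, a tissue-restricted form of the C subunit that joins V1 to V0, was the pump gene with the most reads. It lies at chr12:17284721-17329359 on the minus strand. Its exons overlap Pdia6 on the opposite strand, which makes the reads uncertain. It had 126, 99.8 and 110 CPM in F1 chlordecone 1, 2 and 3, against 178 and 156 CPM in F1 control 1 and 2. All 3 chlordecone libraries lay below both controls, the opposite side from Atp6v1g3.

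**Figure D1:**
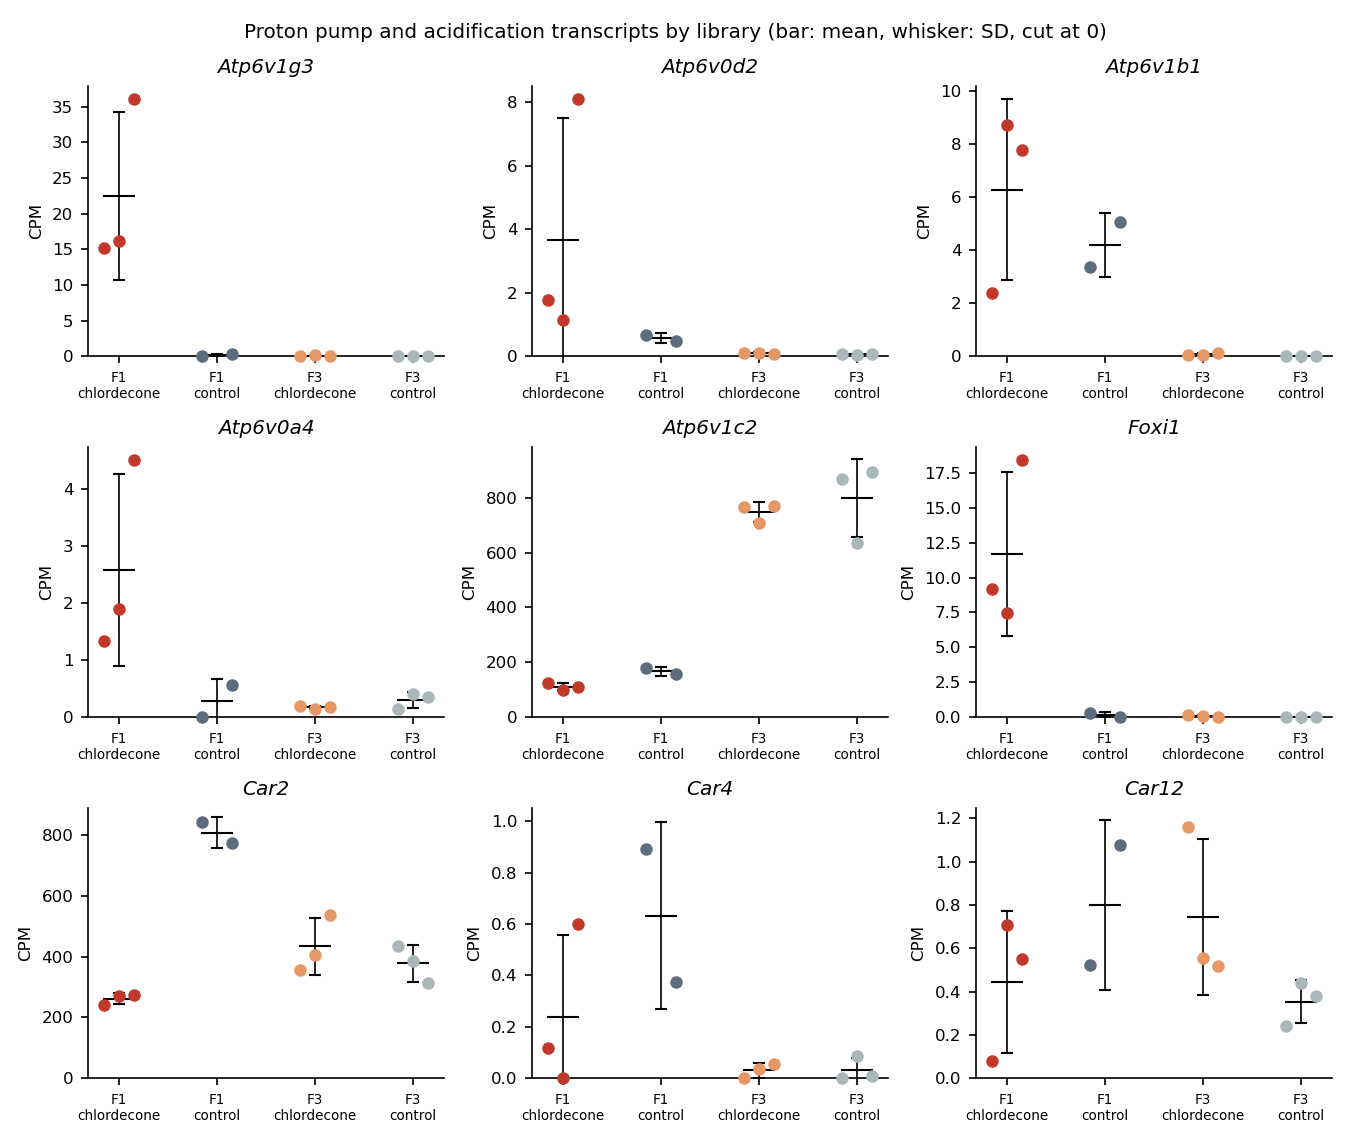
Level of each of the 9 genes in CPM (vertical axis, scale differing by panel) in every library, with chlordecone left of control within F1 and within F3, bars at the group mean and whiskers of 1 SD that stop at 0. Atp6v1g3 and Foxi1 stand between 7.47 and 36.1 CPM in F1 chlordecone libraries and at most at 0.314 CPM in F1 control libraries, while Car2 is lower in F1 chlordecone libraries and overlaps in F3.

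Foxi1, the forkhead factor gene of these cells, lies at chr11:34204338-34208089 on the minus strand. It had 9.19, 7.47 and 18.4 CPM (232, 137 and 400 counts) in F1 chlordecone 1, 2 and 3, against 0.314 and 0.0469 CPM (6 and 1 counts) in F1 control 1 and 2. The chlordecone libraries were all above the controls, with chlordecone 3 highest, as for Atp6v1g3. Per kilobase of exon, the level of Foxi1 was 0.482, 0.369 and 0.408 times that of Atp6v1g3 in F1 chlordecone 1, 2 and 3. This ratio varied less between the 3 libraries than the level of either gene.

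Of the carbonic anhydrases, Car2 lay on the other side of the controls. Car2, the abundant cytosolic enzyme that hydrates carbon dioxide, lies at chr3:14886273-14900770 on the plus strand. It had 241, 272 and 274 CPM in F1 chlordecone 1, 2 and 3, against 843 and 772 CPM in F1 control 1 and 2. The spread within each group was small beside the gap, and the mean was 3.08 times as high in F1 control as in F1 chlordecone by the fitted ratio. Car4, a membrane-anchored enzyme facing the outside of the cell, lies at chr11:84957786-84966044 on the plus strand. Car4 had 0.119, 0 and 0.598 CPM in F1 chlordecone 1, 2 and 3, against 0.891 and 0.375 CPM in F1 control 1 and 2. Car12, a transmembrane enzyme whose active site also faces outward, lies at chr9:66713686-66766845 on the plus strand. Car12 had 0.0792, 0.709 and 0.552 CPM in F1 chlordecone 1, 2 and 3, against 0.524 and 1.08 CPM in F1 control 1 and 2. Both low-level enzymes overlapped between the groups.

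The F1 comparison was part of what chose these genes, so its fitted values describe them. The log2 fold changes, chlordecone over control, in edgeR's quasi-likelihood fit were 7.21 (SE 0.92) for Atp6v1g3, 6.01 (SE 0.86) for Foxi1, 3.16 (SE 1.43) for Atp6v0a4 and 2.67 (SE 1.06) for Atp6v0d2. They were 0.58 (SE 0.63) for Atp6v1b1, -0.58 (SE 0.26) for Atp6v1c2, -0.84 (SE 1.41) for Car12 and -1.62 (SE 0.28) for Car2. Car4 did not pass the filter on low counts. With Benjamini-Hochberg adjustment over all 17804 genes tested, 0 of the 8 genes that passed the filter were called, where 0.0281% of all genes were. Their lowest edgeR adjusted p-values were 0.0629 for Atp6v1g3, 0.0812 for Foxi1 and 0.138 for Car2, and 4 of the 8 had an unadjusted p under 0.05, as did 11.5% of all genes tested. DESeq2 called these 3 genes and no other of the 9, where it called 3.70% of all genes. The same 3 passed the threshold in the authors' deposited table, which called 3.37% of its genes.

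By position of the libraries, 4 of the 9 genes had every F1 chlordecone library above both controls (Atp6v1g3, Foxi1, Atp6v0d2 and Atp6v0a4), 2 had every one below (Car2 and Atp6v1c2), and 3 overlapped. Of all genes in F1, 15.8% lay above and 14.8% lay below in this way. Leaving out F1 chlordecone 2 brought Atp6v1g3 (adjusted p = 0.00325), Foxi1 (0.00393) and Car2 (0.00209) past the edgeR threshold. That fit called 2604 of all 17394 genes tested. Leaving out F1 control 2 put the fitted log2 fold change of Atp6v1g3 at 11.89, since the remaining control had no count, and that of Atp6v0a4 at 8.78 for the same reason. Without F1 control 1 the log2 fold change of Foxi1 was 7.80, and without F1 chlordecone 3 that of Atp6v0d2 was 1.34. F1 chlordecone 2 alone against both controls gave log2 fold changes of 6.73 for Atp6v1g3, 5.35 for Foxi1, -0.74 for Atp6v1c2 and -1.57 for Car2. This setting was chosen after seeing the data, and its values have no test. In it, 1 library stands against 2 controls that differed far less than any other F1 pair. F1 chlordecone 2 also had a duct marker sum above both controls (110 against 30.3 and 27.3 CPM). Its seminal vesicle marker sum was above them too (436292 against 137022 and 138491 CPM).

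**Figure D2:**
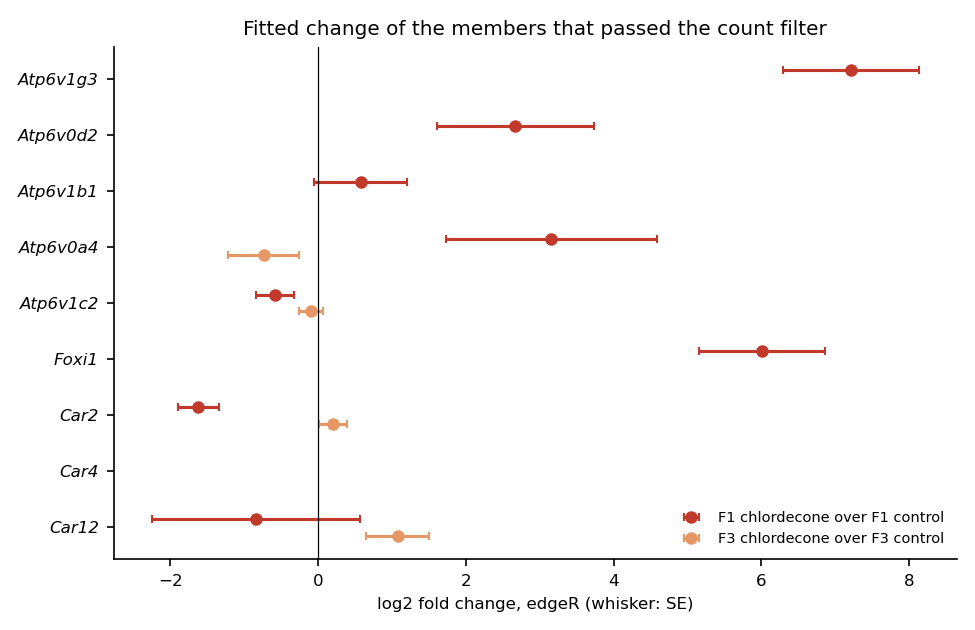
Log2 fold change of chlordecone over control (horizontal axis) with its SE from edgeR for the genes that passed the filter on low counts, in F1 and in F3. In F1 the values run from 7.21 for Atp6v1g3 to -1.62 for Car2, and in F3 the 4 genes that passed lie between -0.74 and 1.08.

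Markers of other tissues moved unevenly across the same F1 libraries. Akr1b7, a secretory-duct aldo-keto reductase, had 29064, 33.2 and 8741 CPM in F1 chlordecone 1, 2 and 3, against 15.3 and 14.8 CPM in F1 control 1 and 2. Crisp1, a sperm-coating protein of the epididymis, had 15224, 68.5 and 5188 CPM in F1 chlordecone 1, 2 and 3, against 8.70 and 10.1 CPM in F1 control 1 and 2. Aqp9, the water channel of epididymal principal cells, had 35.4, 0 and 11.6 CPM in F1 chlordecone 1, 2 and 3, against 0 and 0.141 CPM in F1 control 1 and 2. In F1 chlordecone 2, Aqp9 had no count, while Akr1b7, Crisp1 and the duct marker sum were above both controls and far below chlordecone 1 and 3.

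The 9 seminal vesicle markers summed to 195911, 436292 and 537325 CPM in F1 chlordecone 1, 2 and 3, against 137022 and 138491 CPM in F1 control 1 and 2, so the groups did not overlap. The seminal vesicle protein gene Svs2 had 34722, 23806 and 199639 CPM in F1 chlordecone 1, 2 and 3, against 3930 and 3196 CPM in F1 control 1 and 2. It was highest in chlordecone 3, the library with the most Atp6v1g3, Foxi1, Atp6v0d2 and Atp6v0a4. Svs4, another seminal vesicle protein gene, had 57418, 290002 and 40393 CPM in F1 chlordecone 1, 2 and 3, against 77826 and 81025 CPM in F1 control 1 and 2. It was lowest in chlordecone 3 and lay below both controls in chlordecone 1 and 3, unlike Svs2. The part of these tissues in the F1 values was not tested.

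Prostate markers, 8 in all, summed to 40604 to 89318 CPM in F1 chlordecone and 80182 to 95345 CPM in F1 control. The 9 urothelial markers summed to 1364 to 1731 CPM in F1 chlordecone and 3197 to 3239 CPM in F1 control. Upk3a, a defining one, had 16.0, 0.709 and 7.0 CPM in F1 chlordecone 1, 2 and 3, against 0.681 and 0.328 CPM in F1 control 1 and 2. Krt20, another defining one, had 5.11, 0.709 and 1.75 CPM in F1 chlordecone 1, 2 and 3, against 0.314 and 0.0469 CPM in F1 control 1 and 2. Both lay above the controls in every chlordecone library, on the other side from the urothelial sum. For Upk3a, however, F1 chlordecone 2 and F1 control 1 had 13 counts each and differed only by scaling. Osteoclast and macrophage markers, which bear on Atp6v0d2, summed to 36.2 to 52.9 CPM in F1 chlordecone and 54.2 to 61.8 CPM in F1 control. The 4 measured kidney markers, of 6 listed, summed to 1.54 to 6.11 CPM in F1 chlordecone and 6.34 to 10.3 CPM in F1 control. Red blood cells are rich in Car2, and the 2 measured markers of theirs, of 6 listed, summed to 1.35 to 4.31 CPM in F1 chlordecone and 2.62 to 4.40 CPM in F1 control. The macrophage and kidney sums were below the controls in every F1 chlordecone library, and the red cell sums overlapped. Acp5 held a large part of the macrophage sum. It had 28.3, 20.7 and 25.5 CPM in F1 chlordecone 1, 2 and 3, against 40.7 and 45.7 in F1 control 1 and 2. Ctsk overlapped, with 7.09, 3.33 and 6.35 CPM in F1 chlordecone 1, 2 and 3, against 5.40 and 4.26 in the F1 controls. The part of such cells in the Atp6v0d2 values was not tested.

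**Figure D3:**
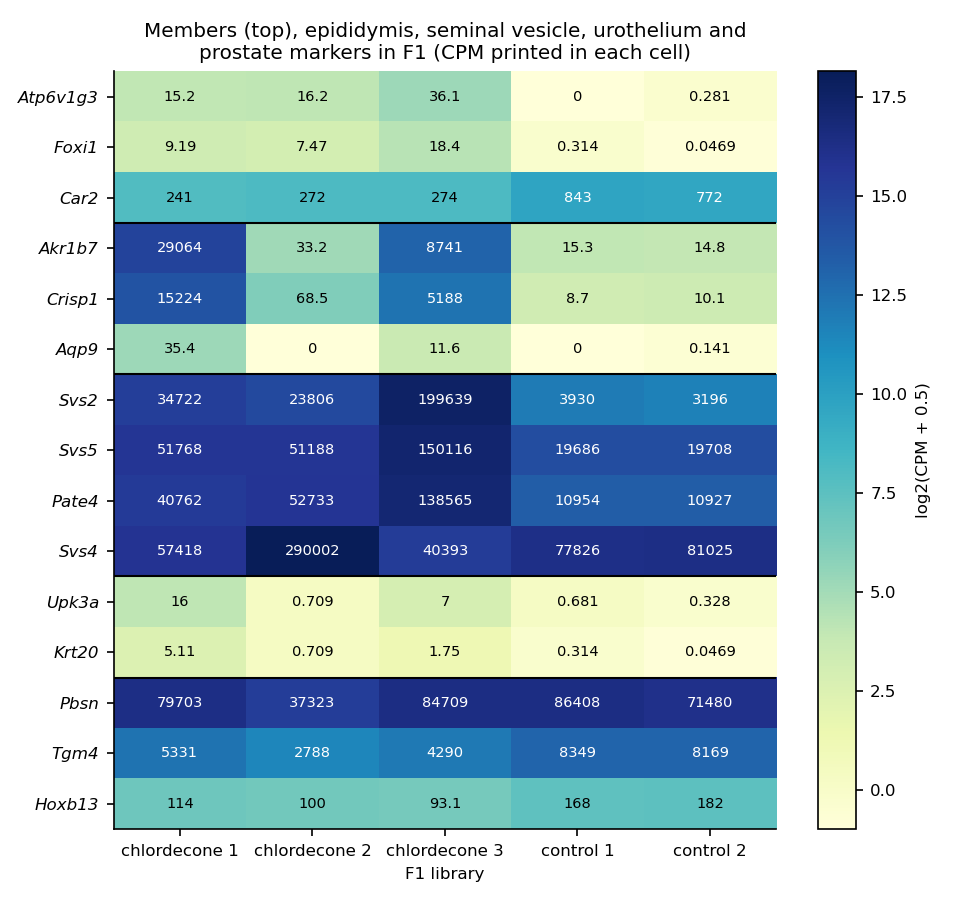
Level of Atp6v1g3, Foxi1 and Car2 (top) and of marker genes of the epididymis and vas deferens, seminal vesicle, urothelium and prostate (rows) in the 5 F1 libraries (columns, chlordecone left of control), coloured by log2(CPM + 0.5) with the CPM printed in each cell. Markers of the epididymis and vas deferens are higher in chlordecone 1 and 3 than in chlordecone 2, and Atp6v1g3 and Foxi1 are above both controls in all 3.

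Which form of each subunit filled the pump transcripts was compared per kilobase of exon, within a library. Atp6v1g3 made up 3.70% to 9.53% of G subunit transcripts in F1 chlordecone libraries and 0% to 0.128% in F1 control libraries, the rest being mostly the widely expressed Atp6v1g1. Atp6v0a4 made up 2.66% to 9.80% of a subunit transcripts in F1 chlordecone and 0% to 2.42% in F1 control. Atp6v0d2 made up 1.76% to 10.4% of d subunit transcripts in F1 chlordecone and 0.899% to 1.61% in F1 control. The share was higher in every chlordecone library for these 3 forms, although for the a and d forms the nearest libraries were close.

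The share of Atp6v1b1 among B subunit transcripts overlapped, at 7.87% to 31.1% in F1 chlordecone and 12.3% to 18.3% in F1 control. Atp6v1c2 was the main C subunit form throughout, with 81.5% to 88.0% in F1 chlordecone and 91.5% to 91.6% in F1 control. In F3 it held 96.3% to 97.1% in chlordecone and 95.9% to 97.0% in control libraries. In the same F3 libraries the G, B, a and d forms held at most 0.0904%, 0.0923%, 0.187% and 0.0406% in chlordecone and at most 0.0249%, 0%, 0.444% and 0.0299% in control. The other G, B, a and d forms thus made up nearly all of those transcripts in every F3 library.

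**Figure D4:**
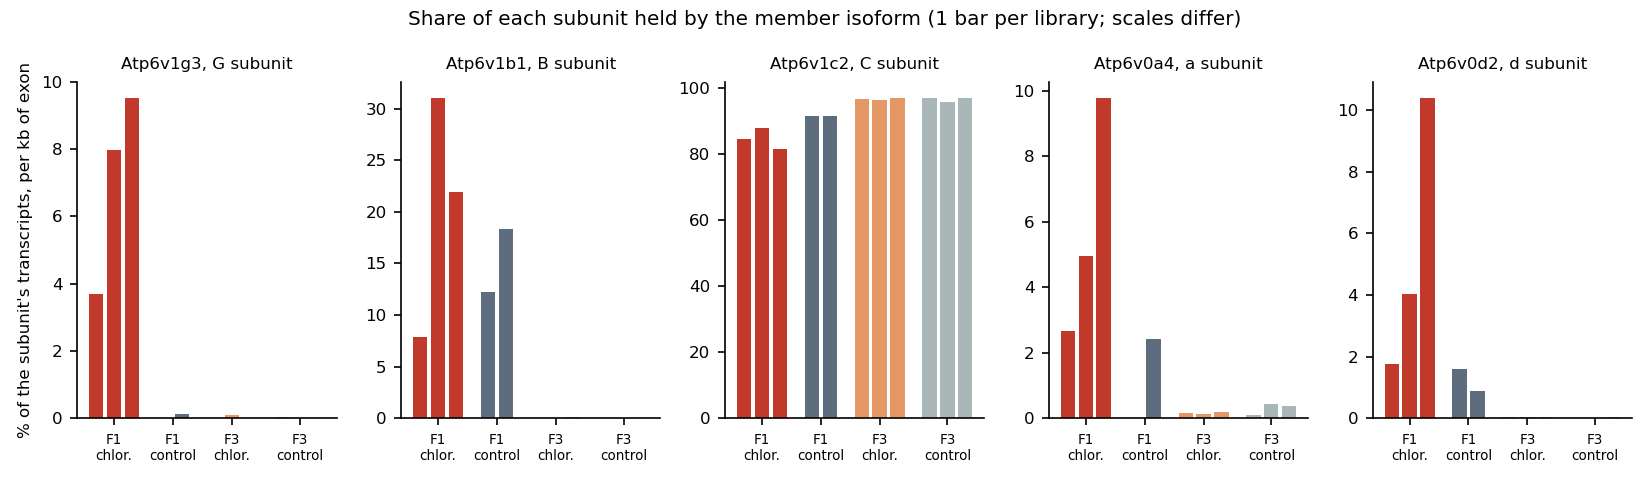
Share of each pump subunit's transcripts, per kilobase of exon, that came from Atp6v1g3, Atp6v1b1, Atp6v1c2, Atp6v0a4 or Atp6v0d2 (vertical axis, percent, scale differing by panel), 1 bar per library, chlordecone left of control in each generation. Atp6v1g3 holds 3.70% to 9.53% in F1 chlordecone and at most 0.128% in F1 control, while Atp6v1c2 holds at least 81.5% in every library.

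Ordered by level per kilobase in F1 chlordecone, Car2 (108 ± 7.69 CPM per kb) stood above Atp6v1c2 (51.5 ± 6.12), Atp6v1g3 (11.9 ± 6.24) and Foxi1 (4.96 ± 2.50; SD, n = 3), and the ranges of these neighbours did not overlap. Atp6v1b1 at 1.44 ± 0.782, Atp6v0d2 at 1.35 ± 1.42 and Atp6v0a4 at 0.521 ± 0.340 CPM per kb followed with overlapping ranges, as did Car4 and Car12 at 0.122 and 0.0588 CPM per kb. In F1 control Car2 (333 ± 20.7) and Atp6v1c2 (76.9 ± 7.19; SD, n = 2) again came first. The other 7 genes there were at 0.960 CPM per kb or below, with Atp6v1b1 the highest of them. In F3 the order of the top pair was turned, with Atp6v1c2 at 344 ± 16.4 and Car2 at 179 ± 38.7 CPM per kb in chlordecone, and 367 ± 65.9 and 156 ± 24.9 CPM per kb in control (SD, n = 3 each). The remaining 7 genes had means of at most 0.0981 CPM per kb in F3 chlordecone and 0.0606 CPM per kb in F3 control.

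In F3, 0 of the 4 genes that passed the filter were called by edgeR, where 0.0596% of 16766 genes were, and DESeq2 called 0 of the 6 for which it gave an adjusted p (1.24% of all genes). The authors' deposited table also called 0 of the 9, against 0.646% of its genes. Only Car12 had an unadjusted edgeR p under 0.05, as did 10.6% of all genes tested.

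Atp6v1g3 and Foxi1 were near the detection limit in F3. Atp6v1g3 had 2, 13 and 2 counts (0.0180, 0.151 and 0.0189 CPM) in F3 chlordecone 1, 2 and 3, against 4, 0 and 0 counts (0.0423, 0 and 0 CPM) in F3 control 1, 2 and 3. Foxi1 had 19, 9 and 4 counts (0.171, 0.105 and 0.0377 CPM) in F3 chlordecone 1, 2 and 3, against 4, 1 and 6 counts (0.0423, 0.0141 and 0.0498 CPM) in F3 control 1, 2 and 3. Both overlapped between the groups and failed the filter on low counts. With no filter the edgeR log2 fold change was 2.01 for Atp6v1g3 (unadjusted p = 0.164, adjusted p = 0.686) and 1.48 for Foxi1 (unadjusted p = 0.102, adjusted p = 0.649).

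Atp6v1b1 was at 0 in all 3 F3 controls. It had 4, 3 and 15 counts (0.0359, 0.0349 and 0.141 CPM) in F3 chlordecone 1, 2 and 3, against 0 counts in each F3 control. It was at least 2.14-fold higher in chlordecone against a floor of 3 counts per control library, 0.0330 CPM on average. Chlordecone 3 carried this bound, which was 1.07-fold without it. It failed the edgeR filter, and with no filter its edgeR adjusted p was 0.295 (unadjusted 0.0043). The other 2 pump genes at low level did not separate the groups. Atp6v0d2 had 0.108, 0.116 and 0.0755 CPM in F3 chlordecone 1, 2 and 3, against 0.0846, 0.0424 and 0.0664 CPM in F3 control 1, 2 and 3. Atp6v0a4 had 0.207, 0.151 and 0.179 CPM in F3 chlordecone 1, 2 and 3, against 0.137, 0.410 and 0.357 CPM in F3 control 1, 2 and 3 (edgeR log2 fold change -0.74, SE 0.48, adjusted p = 0.581).

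Atp6v1c2 and Car2 were abundant in F3 and overlapped. Atp6v1c2 had 767, 707 and 770 CPM in F3 chlordecone 1, 2 and 3, against 868, 634 and 894 CPM in F3 control 1, 2 and 3. Its log2 fold change was -0.10 (SE 0.17, edgeR adjusted p = 0.844). Car2 had 357, 407 and 538 CPM in F3 chlordecone 1, 2 and 3, against 434, 386 and 314 CPM in F3 control 1, 2 and 3. Chlordecone 3 was the highest and control 3 the lowest library, with the others between. The log2 fold change was 0.20 (SE 0.19, edgeR adjusted p = 0.702).

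Car12 did separate the groups in F3. It had 1.16, 0.558 and 0.519 CPM (129, 48 and 55 counts) in F3 chlordecone 1, 2 and 3, against 0.243, 0.438 and 0.382 CPM (23, 31 and 46 counts) in F3 control 1, 2 and 3. Chlordecone 1 was highest, and all 3 chlordecone libraries lay above the controls. The log2 fold change was 1.08 (SE 0.43), with an edgeR p of 0.0355 and an adjusted p of 0.456. Without F3 chlordecone 1 the log2 fold change was 0.61. Car4 had 0, 0.0349 and 0.0566 CPM in F3 chlordecone 1, 2 and 3, against 0, 0.0849 and 0.0083 CPM in F3 control 1, 2 and 3. Of the 9 genes, Atp6v1b1 and Car12 thus lay wholly above the controls in F3 and 0 wholly below, where 6.57% and 6.49% of all genes did. For Atp6v1b1 the separation is not resolved. The 0 in F3 control 2 allows up to 0.0424 CPM, more than in F3 chlordecone 1 (0.0359) and 2 (0.0349).

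The duct markers were near 0 in every F3 library, with 9 of them summing to 0.321 to 0.395 CPM in F3 chlordecone and 0.137 to 0.170 CPM in F3 control. The seminal vesicle sums were 7463 to 9735 CPM in F3 chlordecone and 8169 to 10618 CPM in F3 control. Prostate markers summed to 87666 to 97024 CPM in F3 chlordecone and 92764 to 105539 CPM in F3 control. Urothelial markers summed to 525 to 578 CPM in F3 chlordecone and 528 to 552 CPM in F3 control, and kidney markers to 0.0898 to 0.198 CPM in F3 chlordecone and 0.0581 to 0.0990 CPM in F3 control. Macrophage and osteoclast markers summed to 72.4 to 92.2 CPM in F3 chlordecone and 91.0 to 146 CPM in F3 control, and red cell markers to 131 to 285 CPM in F3 chlordecone and 158 to 267 CPM in F3 control. The duct marker sums were higher in all 3 F3 chlordecone libraries than in the controls, at these very low levels. Akr1b7 made up most of the chlordecone sums, with 0.323, 0.314 and 0.245 CPM in F3 chlordecone 1, 2 and 3. It had 0.106, 0.0566 and 0.133 CPM in F3 control 1, 2 and 3. Crisp1 and Aqp9 overlapped between the F3 groups. The part of duct tissue in the Car12 and Atp6v1b1 values was not tested.

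Whether the chlordecone effect differed between the generations was tested on 16980 genes present in both tables, as the F3 effect minus the F1 effect. Because the F1 effect enters this contrast and helped choose the genes, the count is a description. Generation cannot be told apart here from table preparation, depth or the tissue mix of the samples. Seminal vesicle markers summed to 137022 to 138491 CPM in F1 control and 8169 to 10618 CPM in F3 control. EdgeR called 1 of the 9, where 0.718% of all genes were called. Car2 was that gene, with a log2 fold change of 0.20 in F3 and -1.62 in F1 and a difference of 1.88 (SE 0.32, edgeR adjusted p = 0.0212). The edgeR call was lost without F3 chlordecone 2 (adjusted p = 0.0598), F3 chlordecone 3 (0.0603), F3 control 2 (0.0551), F1 control 1 (0.0722) or F1 control 2 (0.0637). The difference itself stayed between 1.71 and 2.02 whichever library was left out. Foxi1 had a difference of -4.52 (SE 1.15, edgeR adjusted p = 0.0777), Atp6v1g3 of -5.26 (SE 2.11, edgeR adjusted p = 0.226) and Atp6v1b1 of 4.69 (SE 1.44, edgeR adjusted p = 0.132). DESeq2 called Car2, Foxi1 and Atp6v1b1, where it called 6.90% of all genes. Foxi1 passed the edgeR threshold without F1 chlordecone 2 (-4.71, adjusted p = 0.0199), in a fit that called 2320 genes. The difference of Atp6v1g3 was -2.29 without F3 control 1 (edgeR adjusted p = 0.927) and -11.48 without F1 control 2 (edgeR adjusted p = 0.194), and that of Foxi1 was -6.36 without F1 control 1. Fitted differences of genes with few or 0 counts depend on the prior count.

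Other genes of the pathway were taken from 5 lists, and 0 of their members were called by edgeR in F1, in F3 or for the difference. Of all genes tested, edgeR called 0.0281% in F1, 0.0596% in F3 and 0.718% for the difference, so few calls were possible in lists of this size. The other V-ATPase subunits, accessory ones included, were compared first. Of 19 tested in F1, 15 were higher and 4 lower with a median log2 fold change of 0.44, while 51.4% of all genes were higher with a median of 0.02. In F3, 4 of 19 were higher and 15 lower with a median of -0.12, while 48.8% of all genes were higher with a median of -0.01. The lowest edgeR adjusted p in this list was 0.325 in F1 and 0.413 in F3.

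The 3 most abundant of these subunits missed the threshold in both generations. Atp6ap1, an accessory subunit, averaged 73.6 ± 28.9 CPM in F1 chlordecone and 66.3 ± 12.6 CPM in F1 control, and 229 ± 1.57 CPM in F3 chlordecone and 244 ± 32.8 CPM in F3 control. Atp6v0b, a subunit of the proton-carrying ring, averaged 212 ± 62.5 CPM in F1 chlordecone and 139 ± 22.8 CPM in F1 control, and 117 ± 7.68 CPM in F3 chlordecone and 156 ± 43.9 CPM in F3 control. Atp6v1e1, a stalk subunit, averaged 146 ± 71.2 CPM in F1 chlordecone and 85.6 ± 5.25 CPM in F1 control, and 150 ± 1.07 CPM in F3 chlordecone and 189 ± 11.5 CPM in F3 control. For Atp6v1e1 in F3 the edgeR adjusted p was 0.413 (unadjusted 0.0138). These and the following means are over 3 libraries, or 2 for F1 control, with the SD.

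Among assembly and regulatory factors, 6 of 10 tested were higher and 4 lower in F1 with a median of 0.03, and 5 of 9 were higher and 4 lower in F3 with a median of 0.13. Rogdi, a component of a pump assembly complex, averaged 35.3 ± 9.26 CPM in F1 chlordecone and 34.4 ± 4.04 CPM in F1 control, and 72.7 ± 4.76 CPM in F3 chlordecone and 84.9 ± 16.7 CPM in F3 control. Ccdc115, a factor for assembly of V0, and Oxr1, which binds the pump, differed by at most 0.24 on the log2 scale in either generation, with edgeR adjusted p-values of 0.635 or more.

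Of the other carbonic anhydrases, 10 of 11 tested were higher and 1 lower in F1 with a median of 0.89, and 4 of 9 were higher and 5 lower in F3 with a median near 0 (-0.00157). Car3, a cytosolic form abundant in muscle and fat, averaged 76.6 ± 72.1 CPM in F1 chlordecone and 3.28 ± 2.18 CPM in F1 control (edgeR log2 fold change 4.55, SE 0.94, adjusted p = 0.170). In F3, Car3 averaged 31.3 ± 25.8 CPM in chlordecone and 39.8 ± 47.2 CPM in control. Its libraries varied widely within every group. The mitochondrial form Car5b averaged 26.9 ± 12.4 CPM in F1 chlordecone and 13.4 ± 1.20 CPM in F1 control, and 21.0 ± 1.87 CPM in F3 chlordecone and 20.9 ± 1.83 CPM in F3 control. Car11, a related protein without enzyme activity, averaged 3.64 ± 1.25 CPM in F1 chlordecone and 1.55 ± 0.857 CPM in F1 control.

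Acid and base transporters were split evenly, with 11 of 23 tested higher and 12 lower in F1 (median -0.10) and 9 of 16 higher and 7 lower in F3 (median 0.02). The sodium-proton exchanger gene Slc9a2 had a log2 fold change of -0.11 (SE 0.35) in F1 and 0.21 (SE 0.25) in F3. Slc9a3r1, a scaffold for membrane transporters, had 0.69 (SE 0.29, edgeR adjusted p = 0.417) in F1 and -0.21 (SE 0.11, edgeR adjusted p = 0.514) in F3.

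Genes of ionocytes and intercalated cells numbered 12 tested in F1, of which 8 were higher and 4 lower with a median of 0.74, also with Bsnd, whose F1 controls were at 0, set to its bound. In F3 only 4 of the 15 listed passed the filter, and they were all higher, with a median of 0.11. Kit, the receptor for stem cell factor, averaged 7.67 ± 0.204 CPM in F1 chlordecone and 1.88 ± 0.0785 CPM in F1 control (edgeR log2 fold change 2.02, SE 0.46, adjusted p = 0.201), and 1.13 ± 0.259 CPM in F3 chlordecone and 1.05 ± 0.423 CPM in F3 control. Tfcp2l1, a transcription factor of intercalated cells, averaged 6.41 ± 1.66 CPM in F1 chlordecone and 4.21 ± 1.21 CPM in F1 control. In F3 it averaged 5.22 ± 1.10 CPM in chlordecone and 2.71 ± 0.624 CPM in control (edgeR log2 fold change 0.94, SE 0.25, unadjusted p = 0.0050, adjusted p = 0.366). Dmrt2, another transcription factor of these cells, averaged 7.30 ± 2.21 CPM in F1 chlordecone and 4.01 ± 3.08 CPM in F1 control, and was below the filter in F3.

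**Figure D5:**
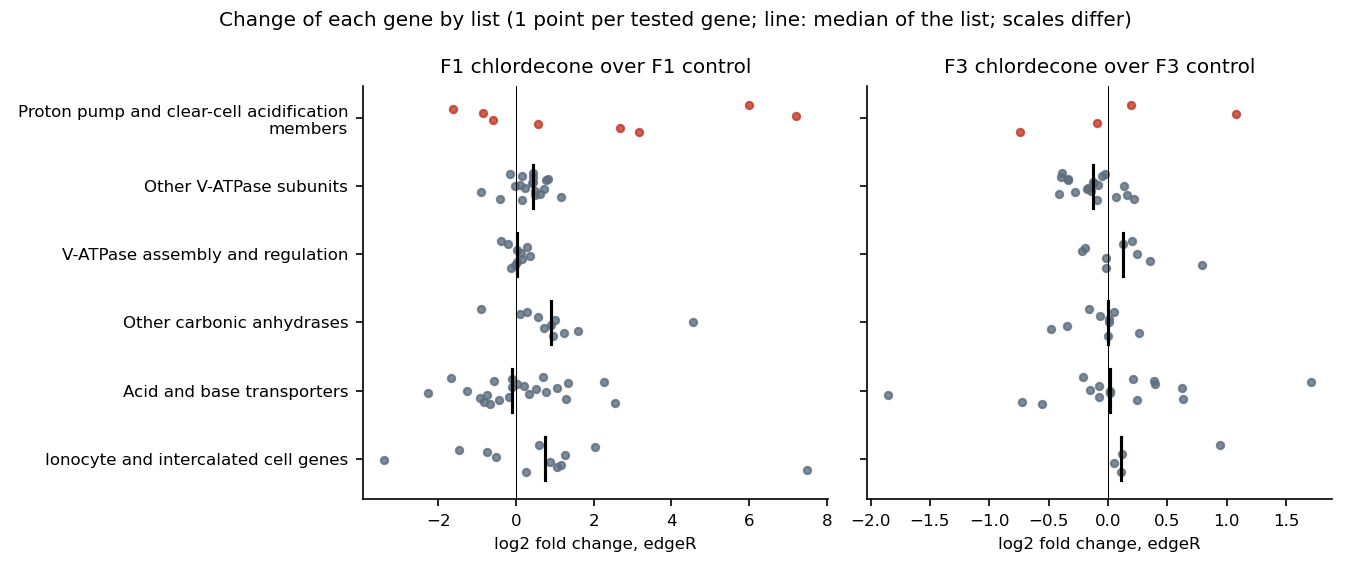
Log2 fold change of chlordecone over control (horizontal axis, scales differing by generation) for each tested gene of the proton pump set and of the 5 pathway lists, F1 and F3, with a line at the median of each pathway list. The far right point of the ionocyte list in F1 is Bsnd, whose fitted value depends on the prior count because its controls were at 0. The V-ATPase subunit median is 0.44 in F1 and -0.12 in F3. In either, 0 of the genes passed the threshold, where 0.0281% of all genes did in F1 and 0.0596% in F3.

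Genes with a pattern like that of Atp6v1g3 or Foxi1 were ranked over the 11 libraries by the root mean square difference of log2(CPM + 0.5), each generation centred on its own mean, among 15011 genes. Nearest to Atp6v1g3 were Pfkfb3 (0.350), Scg5 (0.418), Fgfbp1 (0.442), Cyp21a1 (0.477) and S100a14 (0.526). Foxi1 itself lay 0.442 from Atp6v1g3, as near as Fgfbp1. The other pump genes were farther, with Atp6v0a4 at 1.07, Atp6v0d2 at 1.21 and Atp6v1c2 at 1.91, and Car2 was the farthest of the set at 2.25. Nearest to Foxi1 were Acer2 (0.326), Stap1 (0.341), Scg5 (0.344), Ces1e (0.412) and Kcna2 (0.416). Scg5 was the gene on both lists, with 4.43, 9.60 and 15.2 CPM in F1 chlordecone 1, 2 and 3, against 0.0524 and 0 CPM in F1 control 1 and 2. These distances rest mostly on the 5 F1 libraries, where the levels vary most, and are descriptions.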

How the data were processed

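Poly-A RNA from mouse prostate was sequenced in 11 analysed libraries. Per the labels, C marked control columns and K (kepone) marked chlordecone columns, and 0 columns went unused. The authors deposited raw read counts per gene for each generation, with their own log2 fold changes, p-values and adjusted p-values. The F1 table held no mitochondrial gene (0) and no gene with a total under 20, and the F3 table held 27 and totals from 1. The submitters' processing notes name TopHat2 2.0.14 on mm10, HTSeq 0.6.1, Bowtie2 2.1.0, DESeq2 1.6.3 and bcl2fastq 2.17.1.14. No source used here gives the annotation release or the strand setting, which leaves reads of overlapping genes uncertain.

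The test was edgeR 4.0.16 under R 4.3.3 (filterByExpr with minimum count 10 and minimum total 15, TMM, quasi-likelihood F test, two-sided, no covariate, Benjamini-Hochberg adjusted p under 0.05 over all genes tested), within each generation. The difference between generations was a contrast in 1 fit of all 11 libraries. DESeq2 1.42.0, other scalings and filters, a replicate block and leaving out each library were alternatives. Group differences by position count every gene of a table. Floors are 3 counts per library and cover counting error only.

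Positions and exon lengths are from GENCODE M21 (GRCm38), which matched 19082 F1 and 25835 F3 identifiers, and promoters are from RefSeq. Of the matched identifiers, 2.11% in F1 and 78.9% in F3 had the same start and end. The gene models counted, above all in F1, may thus differ from those used for levels per kilobase, isoform shares and exon overlaps. The members and lists were chosen with earlier results of these data known. All 9 members were named, with the 3 highest-CPM genes of each of 5 pathway lists, any list gene past the threshold, and the 5 genes nearest to Atp6v1g3 and to Foxi1 with a symbol that is no numbered gene model and a mean of at least 1 CPM in either generation. Of the genes this rule names, 1 is not reported here. Markers of 7 other sources were summed per library.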

Additional observations from a re-analysis of the deposited data

Results flagged for a closer look

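The chlordecone effect on Car2, the cytosolic carbonic anhydrase, differed between the generations by 1.88 on the log2 scale (F3 minus F1, SE 0.32, edgeR adjusted p = 0.0212), by the test of the difference itself. All 3 F1 chlordecone libraries lay below both F1 controls, while the F3 groups overlapped. The F1 values that enter this difference were among those that chose the gene. Generation also went with table preparation, depth and tissue mix, which the contrast cannot separate from it. The call was lost without F1 control 1, F1 control 2, F3 chlordecone 2, F3 chlordecone 3 or F3 control 2, with edgeR adjusted p-values of 0.0551 to 0.0722.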

How the results depend on the processing

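Over the alternatives that gave an adjusted p, 0 of the log2 fold changes compared reversed. These covered the genes that passed the main filter: 8 in F1, 4 in F3 and 9 for the difference. Genes that failed that filter were not compared. In F1, against 5 genes and 0 members called by edgeR, no filter called 21 genes and 1 member, DESeq2 692 and 3, 1 fit of all libraries 930 and 3, and F1 chlordecone 2 alone against both controls, chosen after seeing the data, 1226 and 4. That last pair of counts carries no support, because its spread comes from 2 nearly identical controls. Leaving out each library called 0 to 2604 genes and 0 to 3 members in F1. The highest counts came without F1 chlordecone 2, and 0 genes were called without F1 chlordecone 3, F1 control 1 or F1 control 2. In F3, against 10 genes, no filter called 38, DESeq2 228, 1 fit of all libraries 2 and leaving out a library 7 to 41 (41 without F3 control 1 and 17 without F3 control 2), with 0 members under each. For the difference, against 122 genes and 1 member, a minimum mean of 1 CPM called 188 genes, DESeq2 1150 genes and 3 members, and leaving out a library 27 to 2320 genes and 0 to 2 members (2320 and 2 without F1 chlordecone 2). The replicate block called 322 genes and 2 members in F1, and 25 genes and 0 members for the difference, where the edgeR adjusted p of Car2 was 0.0668. Deviations of same-numbered libraries correlated at 0.048 and 0.058 in F1 and at 0.131, 0.0018 and 0.0019 in F3, so the numbers were not taken to pair the samples. The causes of these changes were not tested. Plain library totals put F1 control means at 907 CPM for Car2 and 188 CPM for Atp6v1c2. Among the 5 genes nearest to Atp6v1g3, 2 were shared with a pseudocount of 2. Among those nearest to Foxi1, 2 were shared with 0.1 and 1 with 2. The 2 F1 controls, and the few counts of 5 of the 9 genes in F3, limit the precision.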
